A study of Mus musculus with 4 samples.

Results

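The 10 genes described here are transcripts that the RAS–MEK–ERK cascade is known to switch on and that feed back on it, or that carry its output: the MAP kinase phosphatases Dusp4, Dusp5 and Dusp6, the inhibitors Spry1, Spry2, Spry4 and Spred1, and the transcription factors Etv4, Etv5 and Egr1. They were selected by gene symbol and make up 10 of the 37620 gene identifiers counted in each of 4 RNA-seq libraries. All 10 reached 1 CPM, the count of read pairs scaled to a common library total, in at least 1 library (14263 genes did), although Egr1 did so only through the TSC library. The question put to the data was how these genes differed between mouse cells grown under a MEK inhibitor, when a JAK inhibitor and then BMP4 with an ALK5 inhibitor were added, and how their levels compared with those of trophoblast stem cells.

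Among the 4 libraries analysed here, there was 1 library per condition and no replicate. The paper reports RNA-seq of further samples in some of these conditions, including later days, which were not analysed here. In 2i-L, mouse embryonic stem cells (mESCs) of the R1 line were grown in serum medium without feeders or LIF, with 1 µM PD0325901, which blocks MEK, and 3 µM CHIR99021, which blocks GSK3. 2iJ held both of these and a JAK inhibitor at 2 µM, and 2iJ+B-A held all of these with BMP4 at 10 ng/ml and ALK5 inhibitor II at 10 µM, a blocker of the Activin/TGFβ receptor. The R1 cells were taken on day 2. The fourth library came from trophoblast stem cells (TSCs) of the F4 line, whose label also gives day 2 and names no inhibitor. For TSC culture the study's methods refer to an earlier published protocol, and the components of the medium were not given in the sources used here. PD0325901 was thus in the medium of all 3 R1 libraries, and no R1 library without it was analysed here. Differences between the TSC library and the R1 libraries therefore combine MEK inhibition, cell line, cell type, medium and any difference in experiment day, which cannot be told apart. Differences among the R1 libraries combine the added factors with any difference between cultures or in experiment day, which 1 library per condition cannot separate.

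When a growth factor receptor is engaged, RAS activates the RAF kinases, which phosphorylate MEK, which in turn phosphorylates ERK. Active ERK induces the genes of its own inhibitors: dual-specificity phosphatases remove the activating phosphates from ERK, and Sprouty and Spred proteins restrain signalling between the receptor and RAF. In mESCs, FGF4 made by the cells themselves drives this cascade towards differentiation, which is why a MEK inhibitor is part of 2i medium, whereas FGF signalling keeps TSCs in self-renewal.

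The stretches upstream of Dusp5, Dusp6 and Spry2 are shown because these, of the genes with an entry, were highest in 2iJ+B-A among the 3 R1 libraries. Of the 10 genes, 6 had an entry in the RefSeq promoter table (Dusp5, Dusp6, Spry1, Spry2, Spred1 and Etv5). The sequences are the 250 bases before the RefSeq start site in GRCm38.p6, read 5′ to 3′ on the strand of the gene, at chr19:53528895-53529144 on the plus strand for Dusp5, chr10:99262981-99263230 on the plus strand for Dusp6 and chr14:105896820-105897069 on the minus strand for Spry2. Capitals mark matches to the CArG box, the site bound by serum response factor.
Dusp5: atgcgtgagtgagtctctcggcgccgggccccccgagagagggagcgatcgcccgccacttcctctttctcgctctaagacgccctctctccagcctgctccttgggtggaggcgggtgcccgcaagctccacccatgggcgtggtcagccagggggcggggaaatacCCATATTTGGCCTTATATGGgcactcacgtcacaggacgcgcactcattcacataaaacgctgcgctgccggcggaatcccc
Dusp6: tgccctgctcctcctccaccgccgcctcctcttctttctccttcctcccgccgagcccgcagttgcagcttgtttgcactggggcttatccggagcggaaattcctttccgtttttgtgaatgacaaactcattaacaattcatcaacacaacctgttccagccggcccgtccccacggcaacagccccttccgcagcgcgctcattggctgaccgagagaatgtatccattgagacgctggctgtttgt
Spry2: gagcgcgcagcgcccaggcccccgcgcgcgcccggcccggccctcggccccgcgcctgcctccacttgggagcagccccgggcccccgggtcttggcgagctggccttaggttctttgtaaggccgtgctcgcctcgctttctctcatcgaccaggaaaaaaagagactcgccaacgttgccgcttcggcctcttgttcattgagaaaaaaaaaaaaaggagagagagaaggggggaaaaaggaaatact

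The Dusp5 stretch held 2 CArG boxes, next to each other without overlap, at positions -82 to -73 and -72 to -63 from the start site. A CArG box was present in 1.47% of 32817 mouse promoter entries over the same length, and 2 or more were present in 6 of them. The ETS motif CCGGAAG (6.90% of entries), the AP-1 motif TGAGTCA (4.46%), the CRE motif TGACGTC (2.78%) and the TCF/LEF motif CTTTGA (13.8%) were searched on both strands and had no match upstream of any of the 6 genes. The GC box GGGCGG, found in 32.7% of entries, was present upstream of Dusp5, Spry1, Spred1 and Etv5 and not upstream of Dusp6 or Spry2. These matches describe letters in a window and were not tested as binding sites.

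Total counts on genes ranged from 33913984 to 36964392 per library, so that 3 counts, the smallest signal taken as detectable, corresponded to between 0.0799 and 0.0902 CPM. Markers of the labelled cell types followed the labels. Pou5f1, the gene of Oct4, had between 24721 and 30381 counts in the R1 libraries and 47 in the TSC library, and Elf5, a trophoblast transcription factor, had between 1 and 5 counts in the R1 libraries and 10471 in the TSC library. All intervals below are 95% intervals for counting error only, which do not cover variation between cultures. Ratios are log2 ratios of (CPM + 0.5), a scale that understates differences of low genes, and a gene was called higher or lower when this ratio was at least 1 in size, a fold of 2. Gene positions are given on NCBIM37.

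**Figure D1:**
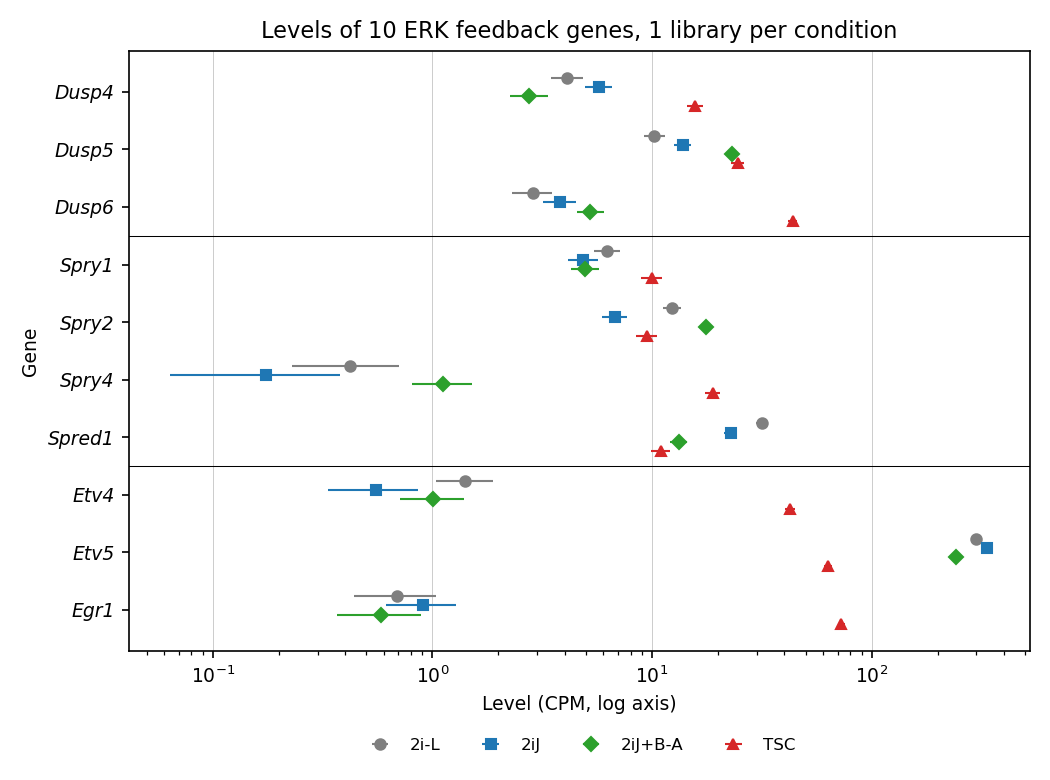
Level of each of the 10 genes in CPM (log axis) in the 4 libraries, with 1 symbol per library and bars giving the 95% counting interval; horizontal lines divide phosphatases, Sprouty and Spred genes, and transcription factors. Egr1, Etv4, Spry4 and Dusp6 in the TSC library lie far to the right of all R1 libraries, whereas Etv5 lies to the left of them.

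The 10 genes did not share a low level under PD0325901. Divided by exon length, so that genes can be compared, their levels summed to 93.1, 99.5 and 84.2 CPM per kb in 2i-L, 2iJ and 2iJ+B-A and to 97.5 CPM per kb in the TSC library. Etv5 alone made up 78.3%, 82.1% and 70.1% of this sum in the 3 R1 libraries and 15.8% in the TSC library. Spry4, Etv4 and Egr1 held the 3 lowest ranks per kb in every R1 library. In the TSC library Egr1 ranked first with 24.1% of the sum, followed by Dusp6 with 16.0%. The sum was thus of like size in the 4 libraries, while the genes that supplied it differed.

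Dusp4 (ENSMUSG00000031530, chr8:35870351-35882948, plus strand) encodes a nuclear phosphatase that acts on ERK and on other MAP kinases. It stood at 4.12, 5.71 and 2.77 CPM in 2i-L, 2iJ and 2iJ+B-A and at 15.6 CPM in the TSC library. Among the R1 libraries it was lowest in 2iJ+B-A, below 2iJ by a log2 ratio of -0.93 (-1.23 to -0.62). The TSC library was above each R1 library, by log2 ratios from 1.38 against 2iJ to 2.30 against 2iJ+B-A.

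Dusp5 (ENSMUSG00000034765, chr19:53603599-53616921, plus strand) encodes a nuclear phosphatase specific for ERK. Its levels were 10.2 CPM (2i-L), 13.8 CPM (2iJ), 23.2 CPM (2iJ+B-A) and 24.5 CPM (TSC). The level was higher with each medium that held more factors, and the log2 ratio of 2iJ+B-A to 2i-L reached 1.14 (0.97 to 1.32). The TSC and 2iJ+B-A libraries did not differ beyond counting error, at a log2 ratio of 0.08 (-0.06 to 0.21), whereas the TSC library was called higher against 2i-L at 1.22 (1.04 to 1.40).

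Dusp6 (ENSMUSG00000019960, chr10:98725865-98730122, plus strand) encodes the cytoplasmic phosphatase specific for ERK, and its transcript is widely used as a readout of ERK activity. It was measured at 2.86, 3.82 and 5.24 CPM in 2i-L, 2iJ and 2iJ+B-A, and at 43.6 CPM in the TSC library. The 3 R1 libraries kept the same order as for Dusp5, with no pair of them apart by a fold of 2. The TSC library was above 2i-L by a log2 ratio of 3.72 (3.46 to 3.98) and above 2iJ+B-A by 2.94 (2.74 to 3.14).

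Spry1 (ENSMUSG00000037211, chr3:37538869-37543520, plus strand) encodes a Sprouty inhibitor of receptor tyrosine kinase signalling. Its levels were 6.25 CPM (2i-L), 4.86 CPM (2iJ), 4.95 CPM (2iJ+B-A) and 9.97 CPM (TSC). This was the narrowest range over the R1 libraries of the Sprouty and Spred genes, with a log2 ratio of 0.33 between the highest and the lowest. The TSC library was highest, by log2 ratios of 0.63 against 2i-L, 0.94 against 2iJ+B-A and 0.97 against 2iJ (0.72 to 1.22), which did not reach the fold of 2, although the last did at 1.04 when libraries were scaled by their totals alone.

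Spry2 (ENSMUSG00000022114, chr14:106291166-106296036, minus strand) encodes another Sprouty inhibitor. It had 12.4, 6.76 and 17.6 CPM in the order 2i-L, 2iJ and 2iJ+B-A, and 9.48 CPM in the TSC library. Of the 10 genes it was the only member whose TSC level lay inside the range of the R1 libraries. It was lower in 2iJ than in 2i-L by a log2 ratio of -0.82 (-1.05 to -0.60) and higher in 2iJ+B-A than in 2iJ by 1.32 (1.11 to 1.53).

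Spry4 (ENSMUSG00000024427, chr18:38745922-38760922, minus strand) encodes a Sprouty protein that acts on the RAS pathway. It had 14, 6 and 42 counts in 2i-L, 2iJ and 2iJ+B-A and 663 in the TSC library, or 0.421, 0.175, 1.12 and 18.9 CPM. Every R1 level was low, and that of 2iJ rested on 6 counts. The ratio of 2iJ+B-A over 2iJ was 1.26 on the log2 scale (0.77 to 1.60), an interval that includes ratios under a fold of 2, and 0.85 with a pseudocount of 1 CPM. The TSC library was above the 3 R1 libraries by log2 ratios from 3.58 (3.25 to 3.91) to 4.84 (4.45 to 5.11).

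Spred1 (ENSMUSG00000027351, chr2:116947110-117008015, plus strand) encodes a membrane protein that brings the RAS inhibitor neurofibromin to the membrane. It went the other way from Dusp5, with 31.6 CPM (2i-L), 22.8 CPM (2iJ), 13.2 CPM (2iJ+B-A) and 11.0 CPM (TSC). The log2 ratio of 2iJ+B-A to 2i-L was -1.23 (-1.38 to -1.08). The TSC library was called lower against 2i-L at -1.49 and against 2iJ at -1.02, the latter not with library totals alone (-0.95), and its log2 ratio to 2iJ+B-A was -0.26 (-0.45 to -0.07).

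Etv4 (ENSMUSG00000017724, chr11:101631056-101646685, minus strand) and Etv5 (ENSMUSG00000013089, chr16:22381382-22439792, minus strand) encode ETS transcription factors of the PEA3 group, which act downstream of FGF receptors. Etv4 had 47, 19 and 38 counts in the R1 libraries and 1490 in the TSC library, which corresponds to 1.41, 0.553, 1.01 and 42.4 CPM. Its R1 levels thus lay near the filter of 1 CPM. The TSC library was above the R1 libraries by log2 ratios of 4.49 against 2i-L, 5.35 against 2iJ (4.97 to 5.69) and 4.83 against 2iJ+B-A. Etv5 showed the opposite order, with 9950, 11516 and 9102 counts (299.2, 335.4 and 242.3 CPM) in the R1 libraries and 2212 counts (63.0 CPM) in the TSC library. Its log2 ratio of TSC to 2iJ was -2.40 (-2.47 to -2.34). Of the longest Etv5 transcript, 79.5% also matched a sequence on chromosome 10, annotated as Gm4798, at 97.4% identity, so that read pairs could be split between them or left uncounted and the Etv5 values are uncertain, although Gm4798 itself had at most 10 counts in any library. The other 9 genes had no such match elsewhere in the genome.

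Egr1 (ENSMUSG00000038418, chr18:35020861-35024638, plus strand) encodes a zinc finger transcription factor of the immediate-early class, induced within minutes of ERK activation. It had 23, 31 and 22 counts in 2i-L, 2iJ and 2iJ+B-A and 2556 in the TSC library, or 0.692, 0.903, 0.586 and 72.8 CPM. The intervals of the 3 R1 libraries overlapped, and none of the ratios among them excluded equality. The log2 ratio of TSC to 2iJ+B-A was 6.08 (5.72 to 6.41), which ranked 12 from the top of the 14263 genes. In a bulk library, fewer cells that express a gene and less RNA per cell cannot be told apart, and this holds for every level given here.

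**Figure D2:**
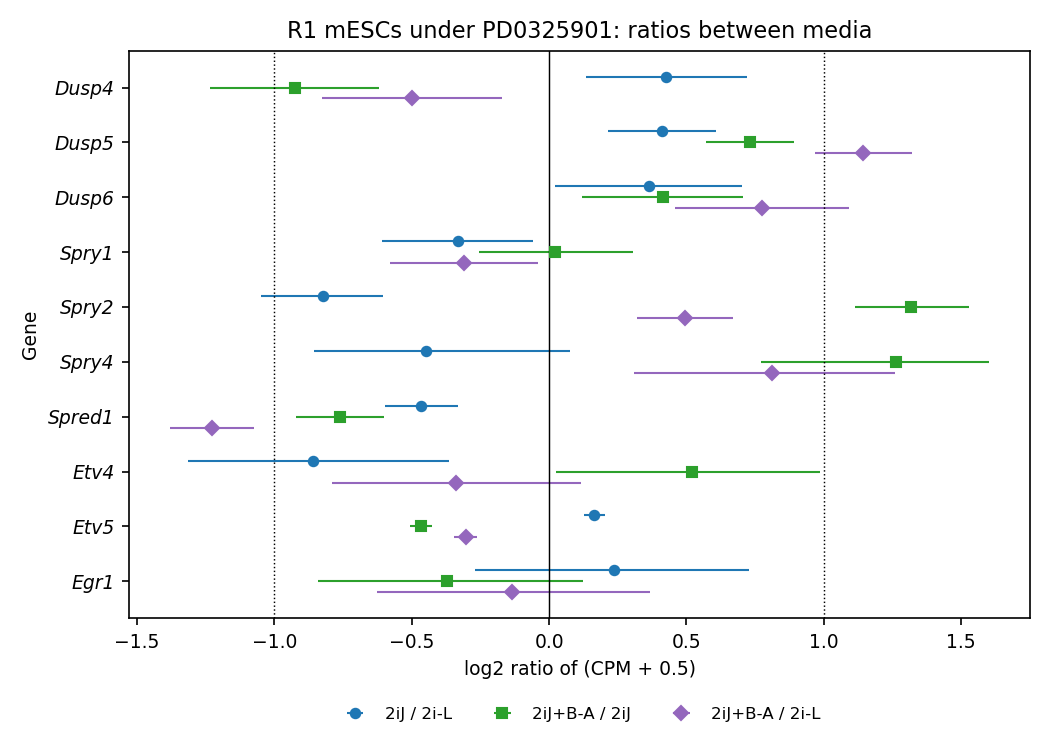
Log2 ratios of (CPM + 0.5) between the 3 R1 media for each gene, with 95% counting intervals; dotted lines mark a fold of 2. Spry2 and Spry4 lie beyond the right line in 2iJ+B-A over 2iJ, Dusp5 and Spred1 lie beyond opposite lines in 2iJ+B-A over 2i-L, and no gene lies beyond a line in 2iJ over 2i-L.

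The comparison of 2iJ with 2i-L asks what the JAK inhibitor changed while the MEK inhibitor was present in both. None of the 10 genes was called, against 2.15% of the 14263 genes (1.23% higher and 0.918% lower). The log2 ratios of the phosphatases were 0.43 for Dusp4, 0.41 for Dusp5 and 0.36 for Dusp6, and those of the Sprouty and Spred genes ran from -0.33 for Spry1 to -0.82 for Spry2, with an interval that included 0 for Spry4 (-0.86 to 0.07). No gene of the wider list of phosphatases and inhibitors was called either, and its median was -0.02. Among the transcription factors, Etv4 was at -0.86 (-1.32 to -0.37), Etv5 at 0.16 and Egr1 at 0.24. The median over the 10 genes was -0.08, and that over all genes was 0.00489.

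The comparison of 2iJ+B-A with 2iJ asks what BMP4 with the ALK5 inhibitor changed. Spry2 and Spry4 were called higher and none of the 10 genes was called lower (Dusp4 was with a pseudocount of 0.1 CPM, at -1.02), whereas 8.97% of all genes were called (5.81% higher and 3.17% lower). In the same direction but short of the fold of 2 were Dusp5 at 0.73 (0.57 to 0.89), Etv4 at 0.52 (0.02 to 0.98) and Dusp6. Dusp4, Spred1 and Etv5 lay the other way, the last at -0.47 (-0.51 to -0.43). The 10 genes thus spread to both sides, and their median log2 ratio was 0.22. Against 2i-L, which shares the 2iJ+B-A library with this comparison, Dusp5 was called higher and Spred1 lower, where 12.5% of all genes were called (7.93% higher and 4.52% lower).

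Markers of cell state also differed between these media. Every call in this paragraph is for 2iJ+B-A over 2iJ, where 5.81% of all genes were called higher and 3.17% lower. The 8 naive pluripotency markers summed to 4749, 3804 and 2778 CPM in 2i-L, 2iJ and 2iJ+B-A, with a median log2 ratio of -0.54 in 2iJ+B-A over 2iJ and none of the 8 called. The 8 trophoblast stem markers summed to 215, 195 and 313 CPM, of which Hand1 supplied 1.62, 1.31 and 103.5 CPM. In 2iJ+B-A over 2iJ, 4 of the 8 were called higher and 1 lower. Called higher were Hand1, Cdx2 (33.6 against 6.70 CPM), Gata3 (19.1 against 7.43 CPM) and Tead4 (19.5 against 8.88 CPM). Eomes was called lower in 2iJ+B-A (2.74 CPM) than in 2iJ (10.7 CPM). The sums were 3.13, 8.24 and 51.1 CPM for the 7 differentiated trophoblast markers and 3.61, 3.35 and 14.4 CPM for the 5 primitive endoderm markers. The 5 primitive streak and mesoderm markers summed to 5.29, 4.98 and 3.35 CPM, with T called lower in 2iJ+B-A (6 counts) than in 2iJ (98 counts). Of the differentiated trophoblast markers, Prl3d1, Prl2c2 and Tpbpa were at 0 in all 3 R1 libraries. Gcm1 had 1053 counts in 2iJ+B-A against 193 in 2iJ, and Ascl2 had 851 against 83. Of the 6 stress and handling genes, 3 were called higher in 2iJ+B-A than in 2iJ, while their sum was 352 CPM against 337 CPM. The part of these markers in the ratios of the 10 genes was not tested.

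**Figure D3:**
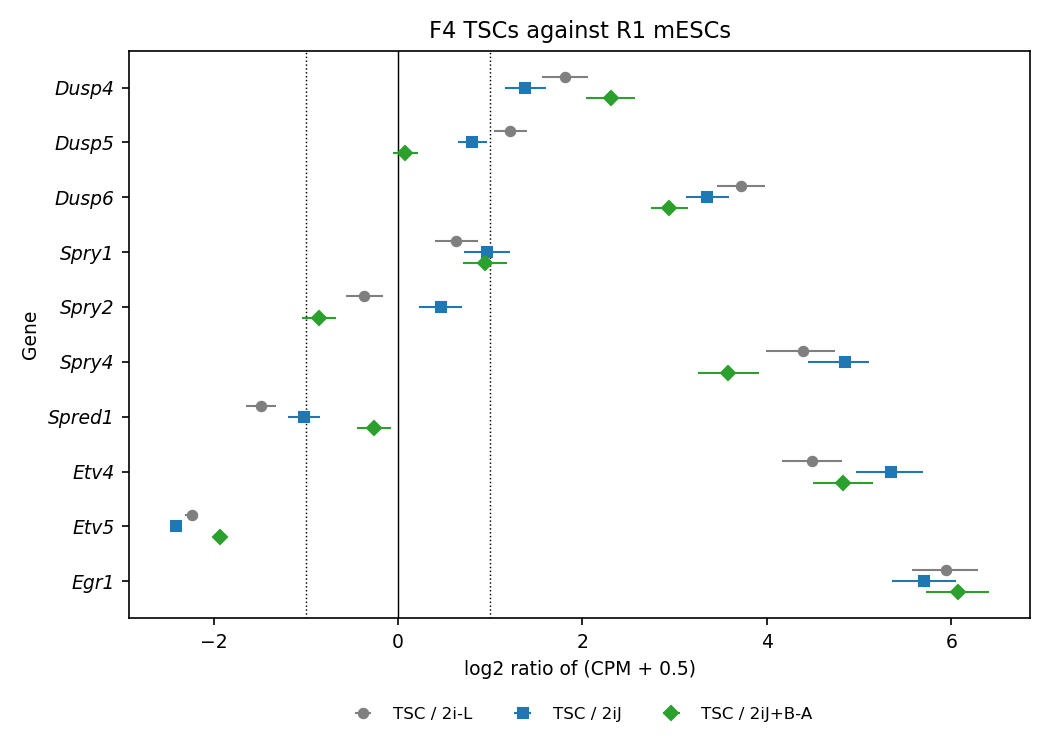
Log2 ratios of (CPM + 0.5) of the TSC library over each R1 library for the 10 genes, with 95% counting intervals; dotted lines mark a fold of 2, and the 3 ratios of a gene share the TSC library. Dusp4, Dusp6, Spry4, Etv4 and Egr1 lie beyond the right line in all 3 ratios, and Etv5 lies beyond the left line in all 3.

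In the TSC library, 6 of the 10 genes were called higher and 2 lower relative to 2i-L, where 36.8% of all genes were called (19.4% higher and 17.4% lower). Relative to 2iJ, 5 were called higher and 2 lower, against 37.0% of all genes (19.4% and 17.6%). Relative to 2iJ+B-A, 5 were called higher and 1 lower, against 32.6% (16.4% and 16.2%). These 3 comparisons share the TSC library and are not independent, and Egr1, which passed the filter only through that library, counts among the genes called higher. Taking the R1 libraries as a range, the TSC level lay at least a fold of 2 above the highest R1 level for Dusp4, Dusp6, Spry4, Etv4 and Egr1 and as far below the lowest for Etv5, that is 5 and 1 of 10 genes, against 25.2% of all genes (13.0% and 12.2%). Dusp5, Spry1, Spry2 and Spred1 did not meet either condition. The median log2 ratio of the 10 genes was 1.51, 1.17 and 1.62 against 2i-L, 2iJ and 2iJ+B-A, and single genes ran from -2.40 to 6.08. The median over all genes was at most 0.00315, a reference that the scaling of the libraries places near equality.

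Of the 6 stress and handling genes, 3, 4 and 1 were called higher in the TSC library than in 2i-L, 2iJ and 2iJ+B-A. Of all genes, 19.4%, 19.4% and 16.4% were called higher in these comparisons. The 4 called relative to 2iJ were Atf3 (12.7 against 4.60 CPM), Hspa1a (4.30 against 0.815 CPM), Hspa1b (10.3 against 3.26 CPM) and Ddit3 (10.0 against 3.41 CPM). Hsph1 and Dnajb1 were not called. Their summed level was 349, 337 and 352 CPM in the R1 libraries and 574 CPM in the TSC library, where Hsph1 was at 443.5 CPM against 239.5 CPM at most in the R1 libraries, while Dnajb1 was at 93.2 CPM against 94.7 to 99.4 CPM. The 7 fibroblast markers summed to 37.6, 36.4 and 21.1 CPM in the R1 libraries and to 3.50 CPM in the TSC library, where Col1a2, Lum and Dcn were at 0. The part of either list in the levels of the 10 genes was not tested.

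**Figure D4:**
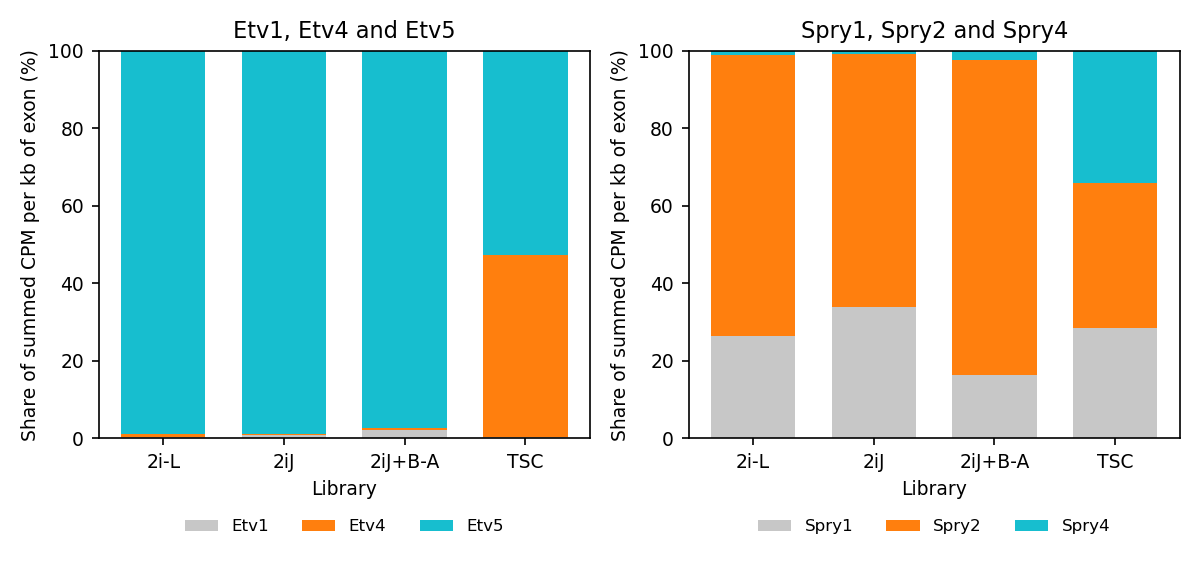
Stacked bars giving the share of each gene in the summed level per kb of exon, in percent, for the PEA3 group of ETS factors (left) and the Sprouty genes (right) in each library. Etv5 fills 97.2% or more of the left bar in the R1 libraries and 52.7% in the TSC library, where Etv4 takes 47.0%, and Spry4 takes 34.0% of the right bar in the TSC library.

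Within families, the member with the highest measured level per kb was the same gene in all 4 libraries, but its share differed. In the TSC library the first place was close for Etv5 over Etv4 and for Spry2 over Spry4. No interval was computed for this order, and the Etv5 value is uncertain. Of the summed level per kb of Etv1, Etv4 and Etv5, Etv5 held 98.9%, 98.8% and 97.2% in 2i-L, 2iJ and 2iJ+B-A and 52.7% in the TSC library, while Etv4 went from at most 0.617% to 47.0%. The sum itself was 73.7, 82.7 and 60.8 CPM per kb in the R1 libraries and 29.1 in the TSC library. Of Spry1, Spry2 and Spry4, Spry2 held between 65.4% and 81.2% in the R1 libraries and 37.6% in the TSC library, and Spry4 held at most 2.35% in the R1 libraries and 34.0% in the TSC library. Of the ERK phosphatases Dusp4, Dusp5, Dusp6, Dusp7 and Dusp9, Dusp9 held 72.4%, 68.0%, 89.0% and 86.0% in the 4 libraries. Dusp9 was therefore the most abundant of these 5 transcripts per kb in every library, and Dusp4, Dusp5 and Dusp6 were each at most 14.2% of the sum. Of Spred1, Spred2 and Spred3, Spred1 held 22.4%, 17.7% and 16.1% in the R1 libraries and 5.55% in the TSC library.

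The other phosphatases and feedback inhibitors were taken from a list of 18 genes, of which 17 were matched and measured. Dusp9, a cytoplasmic ERK phosphatase, was at 73.9, 72.9 and 324.9 CPM in 2i-L, 2iJ and 2iJ+B-A and at 731.0 CPM in the TSC library. It thus resembled Dusp5 and Dusp6 in being highest among the R1 libraries in 2iJ+B-A. Of the list, 3 genes were called higher and 1 lower in 2iJ+B-A than in 2iJ, and 7 higher and 1 lower in the TSC library than in 2iJ, where 8.97% and 37.0% of all genes were called. Dusp2, a phosphatase of nuclear ERK, passed the filter only through the TSC library, so that any call of it there had to be upward. It counts among the 7 called higher, at a log2 ratio of 1.04. Dusp8, a phosphatase that prefers JNK and p38, stood at 11.4 CPM in 2iJ+B-A and 2.07 in 2iJ, although its symbol is shared by 2 overlapping identifiers and its value is uncertain. Il17rd, an inhibitor of FGF receptor signalling also called Sef, was lower in 2iJ+B-A (25.3 CPM) than in 2iJ (56.9 CPM), and Spred2 was at 45.9 and 70.9 CPM. Errfi1, an inhibitor of the EGF receptor, was at 252.9 CPM in the TSC library and 28.9 in 2iJ, and Lrig1, another negative regulator of receptors, was at 6.30 and 37.3 CPM. Dusp10 was at 5.81 CPM in the TSC library and 8.33 in 2iJ, and at 18.6 CPM in 2iJ+B-A it was among the 3 called higher there than in 2iJ.

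Of the 19 immediate-early and other output genes that passed the filter, 13 were called higher and 3 lower in the TSC library than in 2iJ, where 37.0% of all genes were called. Fosb, Fosl1 and Egr2 passed it only through the TSC library, where they were at 9.43, 2.08 and 1.08 CPM, so that any call of these had to be upward. Fos, a subunit of AP-1, was at 61.8 CPM in the TSC library and 1.02 in 2iJ, and Junb was at 111.3 and 4.66 CPM. Ccnd1, the gene of cyclin D1, was lower in the TSC library (14.6 CPM) than in 2iJ (112.8 CPM), as was Epha2, an ephrin receptor (16.8 and 91.3 CPM). In 2iJ+B-A against 2iJ, 5 of the 19 were called higher and 1 lower, against 8.97% of all genes. Myc was at 24.1 and 8.10 CPM and Fosl2 at 14.5 and 4.89 CPM, whereas Epha2 was at 30.2 and 91.3 CPM and Ier2 at 32.7 and 56.7 CPM.

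**Figure D5:**
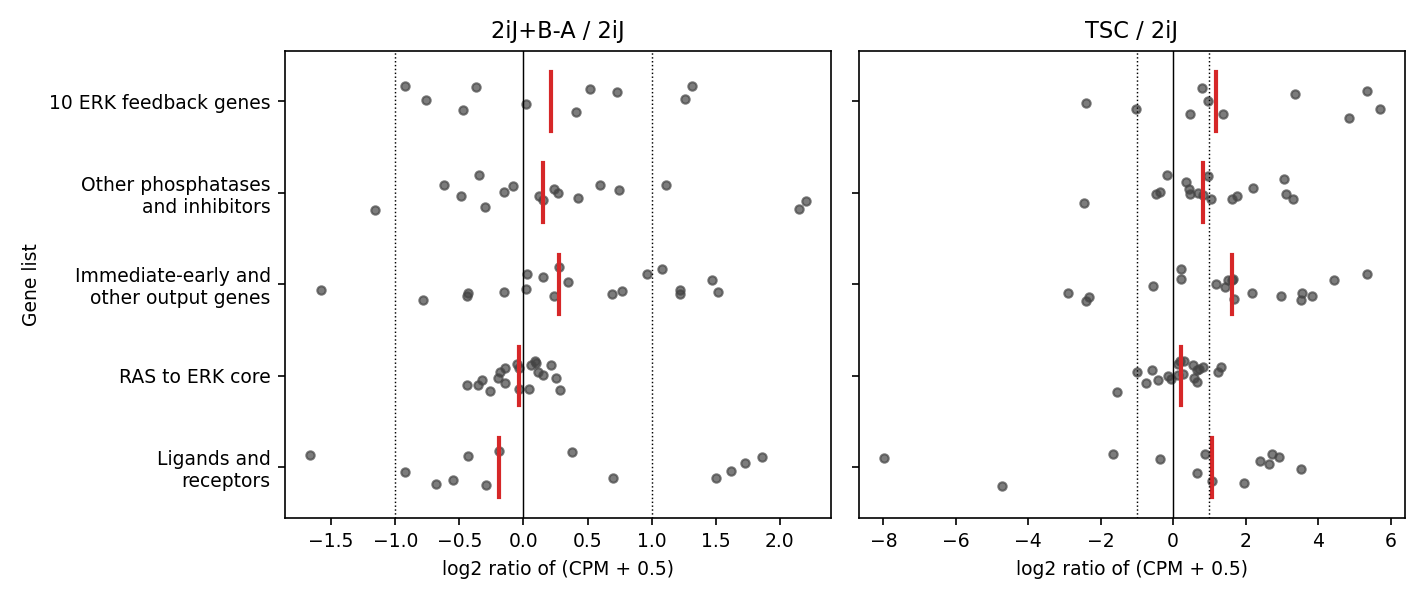
Log2 ratios of (CPM + 0.5) for every measured gene of 5 lists, in 2iJ+B-A over 2iJ (left) and TSC over 2iJ (right); each point is a gene, red bars are list medians and dotted lines mark a fold of 2. The RAS to ERK core list lies within the dotted lines on the left and mostly within them on the right, while the 10 feedback genes spread past them.

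Of 20 genes of the cascade itself, from Grb2 to the RSK kinases, none was called in 2iJ+B-A against 2iJ, where 8.97% of all genes were, with log2 ratios between -0.44 for Ksr1, a scaffold, and 0.29 for Grb2, an adaptor. Mapk3, the gene of ERK1, was at 47.3 and 60.6 CPM and Rps6ka1 at 162.0 and 136.0 CPM. In the TSC library against 2iJ, where 37.0% of all genes were called, 2 of the 20 were called higher, Sos2 at 1.33 and Braf at 1.24, and 1 was called lower, Rps6ka3 at -1.54, while Mapk3 was at -0.999 (-1.11 to -0.89). The median log2 ratio of this list was -0.03 in 2iJ+B-A over 2iJ and 0.23 in TSC over 2iJ.

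Upstream of the cascade, 13 of 14 ligands and receptors passed the filter. Fgf8 did so only through 2iJ, so that any call of it relative to 2iJ had to be downward. Fgf4 was at 186.1, 134.0 and 91.5 CPM in 2i-L, 2iJ and 2iJ+B-A and had 1 count in the TSC library, below the level taken as detectable, for a log2 ratio to 2iJ of -7.99 (-8.07 to -7.67) that depends on the pseudocount. Kit, a receptor, was also lower in the TSC library (4.79 CPM) than in 2iJ (140.7 CPM), whereas Fgfr4 (19.3 and 1.22 CPM) and Erbb2 (64.7 and 9.29 CPM) were higher, among 7 genes called higher and 3 lower, against 37.0% of all genes. In 2iJ+B-A against 2iJ, 4 were called higher and 1 lower, against 8.97% of all genes. The 1 called lower was Fgf8, at 0.0532 and 1.25 CPM, which also counts among the 3 called lower in the TSC library. Pdgfra was at 10.4 and 2.50 CPM and Met at 33.6 and 9.81 CPM, while Fgfr2 was at 26.1 and 49.7 CPM and Fgfr1, whose symbol is shared by 2 overlapping identifiers and whose value is uncertain, at 122.0 and 196.0 CPM. Neither Fgfr2 nor Fgfr1 was called, at log2 ratios of -0.92 and -0.68.

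The median of the 10 genes, centred over the 4 libraries on the log2 scale, was -0.56, -0.49 and -0.40 in 2i-L, 2iJ and 2iJ+B-A and 1.00 in the TSC library. Outside the lists, 10172 genes reached 10 CPM in some library, and those near to this pattern by Euclidean distance included Cyth3 (distance 0.231), Pttg1 and Uaca (0.238 each), and Ccdc68 (0.241). Cyth3, for example, was at 19.4, 20.0 and 21.9 CPM in the R1 libraries and 57.1 CPM in the TSC library. With 4 libraries, this likeness is a description of these samples.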

How the data were processed

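Poly-A RNA from 4 cultures was sequenced in pairs after NEBNext Ultra Directional library preparation. The authors trimmed reads (TrimGalore, with cutadapt), mapped them with STAR 2.4.2a to NCBIM37 and deposited the counts of read pairs per gene on each strand, without normalization. The submitters' processing notes also name CASAVA 1.8.2, and the annotation release was not given in the sources used here. The ComBat adjustment in the study's methods, made for batch effects between experiments on different days, is not in the deposited counts. Between 82.23% and 83.58% of the listed read pairs fell on genes, and 6.72% to 7.01% mapped to several places and were not counted.

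The count on the strand that holds 29.1 to 32.1 times more read pairs was used. CPM were scaled by TMM factors (edgeR 4.0.16 in R 4.3.3, factors 0.969 to 1.03). Genes that reached 1 CPM in any library were kept, a pseudocount of 0.5 CPM was added for ratios, and intervals were exact, Poisson for levels and Clopper–Pearson for ratios. PCR read pairs without molecular identifiers are not independent molecules, and intervals cover counting error only. With 1 library per condition no replicate test could be fitted and no p-value was computed. Gene positions were from NCBIM37 (37205 of 37620 identifiers matched), and promoters, in GRCm38.p6, from RefSeq. Transcripts were aligned with minimap2 2.31 to find copies. The scripts, in Python 3.11.15, were tested on simulated counts that held counting error only and no variation between cultures.

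Of each other pathway list, the text names the 2 genes with the highest and the 2 with the lowest ratio of TSC to 2iJ and of 2iJ+B-A to 2iJ among those that reached 10 CPM in any library, and the 5 nearest genes by pattern, of which 1 is not reported here. Marker genes named beside these, and Dusp9 and Dusp10 in other libraries, were chosen after their values were seen. The members and lists were chosen with earlier results of these data known. Alternatives were the unstranded count, library totals, DESeq2 1.42.0 size factors, other pseudocounts, a fold of 1.5 and no filter.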

Additional observations from a re-analysis of the deposited data

Results flagged for a closer look

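Read pairs on the strand opposite to a gene were not used for any level above, and 6 values of the 10 genes exceeded both 3 counts and the value in 2i-L. They were 4 for Dusp4 in the TSC library, 4 for Dusp5 in 2iJ and 4 in 2iJ+B-A, 4 for Etv4 in the TSC library, 23 for Etv5 in 2iJ and 10 for Egr1 in the TSC library. As a share of the read pairs of the gene on both strands they ranged from 0.199% for Etv5 to 0.837% for Dusp5 in 2iJ, below the share of 3.02% to 3.32% over all genes of a library. Egr1 is overlapped on the other strand by Gm17507, which had 0 counts in the libraries. With 1 library per condition, no search for outlying libraries was made.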

How the results depend on the processing

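No paired analysis was possible because each condition had 1 library, and leaving out a replicate was not possible for the same reason. Over 60 log2 ratios and 5 alternatives for each, 277 of 300 recomputed values stayed within the counting interval. No called ratio changed sign with the unstranded count, library totals or DESeq2 size factors. Another pseudocount cannot change the sign of a ratio. The unstranded count, library totals and DESeq2 size factors moved a ratio by at most 0.118 and left the number of genes called as it was in every comparison, although with library totals Spry1 (1.04) was called in TSC over 2iJ in place of Spred1 (-0.95). In 2iJ against 2i-L, 1 gene was called with a pseudocount of 0.1 CPM (Etv4, at -1.21) and 2 with a fold of 1.5 (Spry2 and Etv4), against 0 as reported. In 2iJ+B-A against 2iJ, 1 gene was called with a pseudocount of 1 CPM, where Spry4 was at 0.85, 3 with 0.1 CPM, where Dusp4 was called lower at -1.02, and 5 with a fold of 1.5 (3 higher and 2 lower), against 2 as reported. In 2iJ+B-A against 2i-L, 3 were called with 0.1 CPM (Spry4 at 1.23) and 4 with a fold of 1.5, against 2. In TSC over 2iJ, Spred1 was at -0.99 with 1 CPM and Spry1 at 1.02 with 0.1 CPM. With a fold of 1.5, 9, 9 and 8 genes were called in the TSC library against 2i-L, 2iJ and 2iJ+B-A and 7 lay outside the R1 range. The share of all genes called in 2iJ against 2i-L was 4.57% with a pseudocount of 0.1 CPM, 1.27% with 1 CPM and 9.29% with a fold of 1.5, against 2.15% as reported. For 2iJ+B-A, the fold of 1.5 gave 20.6% against 8.97% relative to 2iJ and 26.0% against 12.5% relative to 2i-L, and for the TSC library it gave 56.3%, 56.4% and 52.2% against 36.8%, 37.0% and 32.6%, and 41.5% against 25.2% outside the R1 range. Without the filter, 37620 genes were compared, and no call of the 10 genes could differ because all 10 had passed it. Depth limits the low genes: Spry4, Etv4 and Egr1 rested on 6 to 47 counts in the R1 libraries.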
